A study of Mus musculus with 12 samples.

Results

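Levels of RNA were measured in mouse hippocampus for 50 genes of 10 families whose products splice, bind or unwind RNA. The members were the genes whose platform symbol begins with Srsf, Hnrnp, Rbm, Celf, Elavl, Snrp, Sf3, Prpf, Ddx or Dhx, with a log2 value over 4 on at least 3 of the 12 arrays. Where a gene had several probe sets, the one with the highest mean stood for it. The array carried 80 such genes on 126 probe sets, and 66 of these probe sets and 50 of the genes passed the level, out of 4617 genes that passed among 7542 on the array. By family the members numbered 16 Rbm, 8 Ddx, 6 Dhx, 4 Celf, 4 Hnrnp, 4 Prpf, 3 Elavl, 2 Sf3, 2 Srsf and 1 Snrp gene. The other 30 genes stayed below the level and were not tested, among them Srsf1, Rbm39, Rbmx, Hnrnph1, Ddx17, Sf3b2 and Snrpb.

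The study asked how the loss of the transcription factors CREB and CREM alters gene expression induced by kainate, an agonist of glutamate receptors that provokes seizures. Its 4 groups were control mice given saline, control mice given kainate, mutant mice given saline and mutant mice given kainate, each with 3 arrays numbered 1, 2 and 3. Male and female littermates of 5 to 6 weeks were housed singly and handled for 5 days, injected intraperitoneally with kainate at 20 mg/kg or with saline, and killed 1 h later. Each array held the pooled hippocampal RNA of 3 animals, described as a biological replicate. No source used here gives the mutant alleles, any Cre driver or what a replicate number stands for.

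The label of the mutants could not be checked on these arrays. The Creb1 probe set read 7.35 ± 0.35 (SD, n = 3) in controls with saline and 6.98 ± 0.15 in controls with kainate, against 8.23 ± 0.12 and 7.97 ± 0.44 in the mutants, so that it was higher where the gene is described as lost. The Crem probe set was over 4 on none of the 12 arrays. The animals are therefore called labelled mutants below. All 7 immediate early and related genes listed as a positive control for kainate rose in both genotypes. The list was chosen with earlier results of these data known, so their rise is no independent check of the treatment. The median over all entries of an array lay between 3.77 and 4.07, and 5741 to 6378 probe sets per array were over 4.

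Pre-mRNA splicing is carried out by the spliceosome, which assembles from small nuclear ribonucleoproteins. Its Sm proteins (Snrp genes), branch-site factors (Sf3a and Sf3b genes) and Prpf proteins form the core, and DEAD-box and DEAH-box helicases (Ddx and Dhx genes) remodel it at each step, while other helicases act in ribosome assembly and translation. SR proteins (Srsf genes) mostly promote the use of an exon and hnRNP proteins often repress it. CELF proteins and the neuronal ELAV-like proteins, together with many RBM proteins, set splice choices and transcript stability in neurons, where alternative splicing of channels, receptors and adhesion molecules is extensive.

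CREB and CREM bind the cyclic AMP response element, with the full motif TGACGTCA and the short motif TGACG or its reverse complement CGTCA. Promoter sequences of RefSeq (GRCm38.p6) were found for 42 of the 50 members, and the 250 bases before each annotated start were searched on both strands. The full motif was present in 1 of the 42 genes, Dhx36, which is 2.38%, against 3.09% of 3749 genes past the level and 1.77% of 27025 genes in the table. A short motif, counted also where it lies within a full one, was present in 18 of the 42, which is 42.9%, against 31.6% and 19.8%. Windows are printed for some of the matching members described below, to show where the motif lies. The motif is in capitals, and a match is a description of the letters and no evidence of binding. Matches not printed include those of Rbm24, Rbm28, Hnrnpc, Dhx57, Dhx8, Ddx20, Ddx21 and Ddx59. Celf2, Rbm25, Prpf18 and Sf3b1 had no match, either because no motif was present or because no promoter sequence was found. Dhx36 is read on the minus strand at chr3:62507061-62507120, with the motif beginning 106 bases before the start. Srsf11 is on the minus strand at chr3:158036658-158036714 (82 bases), Rbm12 on the minus strand at chr2:156111966-156112016 (25 bases), Elavl4 on the minus strand at chr4:110351938-110351994 (57 bases), Ddx27 on the plus strand at chr2:167015207-167015263 (80 bases) and Srsf6 on the plus strand at chr2:162931433-162931489 (49 bases).
Dhx36: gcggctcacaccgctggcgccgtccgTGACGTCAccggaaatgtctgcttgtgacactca
Srsf11: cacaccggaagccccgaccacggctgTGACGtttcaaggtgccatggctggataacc
Rbm12: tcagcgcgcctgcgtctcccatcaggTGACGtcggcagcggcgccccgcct
Elavl4: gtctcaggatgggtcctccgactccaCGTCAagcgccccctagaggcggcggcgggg
Ddx27: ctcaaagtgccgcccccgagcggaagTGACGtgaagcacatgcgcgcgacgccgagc
Srsf6: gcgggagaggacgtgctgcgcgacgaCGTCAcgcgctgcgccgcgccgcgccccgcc

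Of the 50 members, 43 were over the level on all 12 arrays. The other 7 were over it on fewer, namely Hnrnpu, Prpf4b and Rbm26 on 11, Rbm28 on 10, Rbm20 on 8, Rbm12b2 on 5 and Ddx59 on 3. None was over it in 1 group or 1 replicate number alone. Ddx59 lay just inside the rule with values from 3.59 to 4.09. Its only arrays over the level were control kainate 3 (4.09) and labelled mutant saline 2 and 3 (4.02 and 4.06). It thus entered through groups where it is high in the comparisons below, so its small p-values there are no support for a difference. Just outside lay a Ddx56 probe set and a second Dhx29 probe set, each over the level on 2 arrays. Rbm12b2 was over the level on the 3 control saline arrays, control kainate 1 and labelled mutant saline 1. No labelled mutant kainate array was over it, and its arrays numbered 1 were over it in 3 groups. Its p-values for kainate and for number 1 are likewise no support for a difference. The members varied within groups about as much as other probe sets, with a median residual SD of 0.201 against 0.222 over all 6334 probe sets tested.

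Arrays numbered 1 stood apart from the others in these genes, as described below. After removal of group means, the 18 pairs of arrays that share a number but not a group correlated over the members with r from 0.447 to 0.889, and arrays numbered 2 and 3 with r from 0.286 to 0.726, as a description over 50 genes that share their arrays. A fit with the number as a block is therefore given wherever it changes a call.

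No member passed an adjusted p of 0.05 (limma, Benjamini-Hochberg over all 6334 probe sets) in any of the 7 comparisons of groups. Over all probe sets 0.158% passed for kainate in controls, 0.174% for kainate in labelled mutants, 0% for the difference between those responses, 0% for genotype with saline, 0.0632% for genotype after kainate, 0.41% for kainate averaged over genotypes and 0.253% for genotype averaged over treatments. At an unadjusted p under 0.05 the members numbered 6, 1, 2, 5, 3, 6 and 3 of 50 in that order, or 12%, 2%, 4%, 10%, 6%, 12% and 6%, against 11.6%, 6.28%, 2.32%, 3.88%, 4.67%, 14.7% and 6.47% of all probe sets. The median member changed with kainate by -0.01 in controls and -0.08 in labelled mutants, against 0.02 and -0.04 over all. With the block, 0 members passed in the 5 comparisons within a genotype or treatment or between responses, where 0.584%, 0.363%, 0%, 0.142% and 0.111% of all probe sets did, and 14, 5, 5, 6 and 8 members had an unadjusted p under 0.05, or 28%, 10%, 10%, 12% and 16%, against 25.6%, 15.5%, 8.94%, 9% and 13.7% of all probe sets. Averaged over genotypes, 1 of 50 passed with the block for kainate (2% against 7.63% of all), and averaged over treatments 1 of 50 for genotype (2% against 2.32%). These were Rbm25 and Celf2. With 1 array left out, the blocked kainate count ran from 0 to 8 members, the 8 without labelled mutant kainate 1, and from 54 to 1077 of all probe sets against 483 with all arrays.

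Celf2 was lower in the labelled mutants. This CELF protein controls alternative exons and is abundant in forebrain neurons. Its values were 9.44, 9.22 and 9.10 in controls with saline, 9.30, 9.14 and 9.11 in controls with kainate, 9.02, 8.80 and 8.56 in labelled mutants with saline, and 8.98, 8.64 and 8.62 in labelled mutants with kainate, for replicate numbers 1, 2 and 3. Every labelled mutant array thus lay below every control array, and within both genotypes the array numbered 1 was the highest of each group. Non-overlap of the 6 arrays of each genotype was seen for 1 of the 50 members (2%) and for 0.995% of all probe sets. The log2 difference averaged over treatments was -0.45 (1.37-fold lower), with a standard error of 0.11 and an adjusted p of 0.167 without the block, and of 0.06 and 0.00893 with it (limma). The difference was negative in 6 of 6 pairs of equal number, and the blocked call held when any 1 of the 12 arrays was left out, with adjusted p from 0.0134 to 0.0448. Celf5, Srsf6 and Rbm24, which did not pass, were also lower in 6 of 6 pairs, and Dhx29 was higher in 6 of 6. A second Celf2 probe set gave -0.22 with an adjusted p of 0.657 with the block.

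Members with the next smallest p for genotype averaged over treatments did not pass. Celf5, a related CELF gene, was at 8.11 ± 0.08 and 8.28 ± 0.08 in controls with saline and kainate and at 7.82 ± 0.20 and 7.94 ± 0.13 in labelled mutants (SD, n = 3), a log2 difference of -0.31 with an adjusted p of 0.304 (0.127 with the block, limma). The SR protein gene Srsf6 gave -0.24 (adjusted p 0.586, limma), Rbm24 -0.32 and Hnrnpu, which encodes a nuclear matrix-associated hnRNP, 0.32 (adjusted p 0.914 and 0.797, limma). With saline alone Ddx59 (0.28), Ddx21 (0.25), a nucleolar helicase, and Rbm33 (0.23) also had p-values among the smallest, at adjusted p from 0.85 to 1 (limma). Of these, Ddx59 entered the members through labelled mutant saline and control kainate arrays alone.

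**Figure D1:**
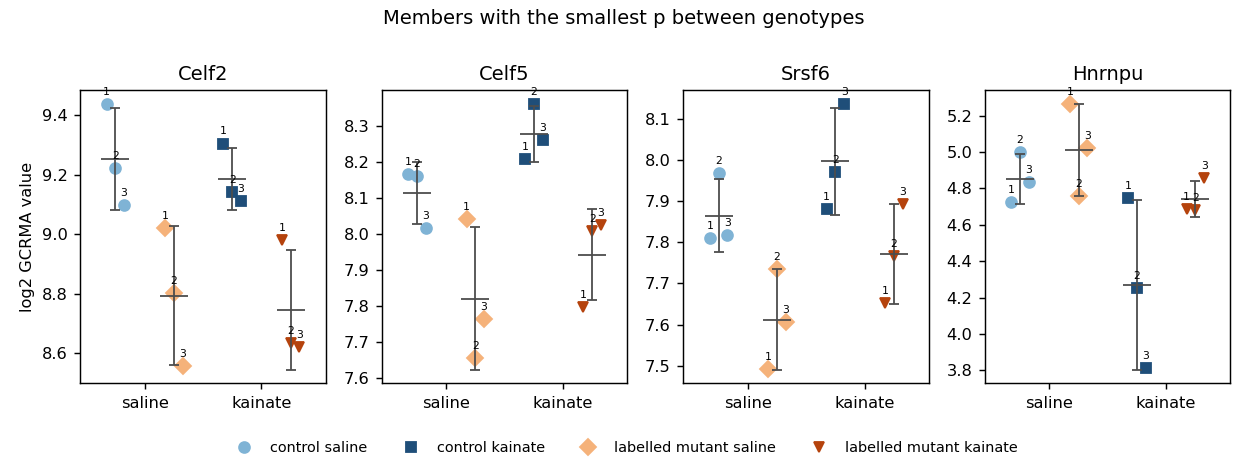
Log2 GCRMA values of Celf2, Celf5, Srsf6 and Hnrnpu on each of the 12 arrays by treatment and genotype, with the replicate number beside each point and bars for the mean and SD of the 3 arrays of a group. For Celf2 all 6 labelled mutant arrays (8.56 to 9.02) lie below all 6 control arrays (9.10 to 9.44), while the other genes overlap.

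Astrocyte and microglial markers were higher in labelled mutants, though none of them passed without the block. The 1 measured oligodendrocyte marker out of 8 listed, Mobp, was lower (-0.21) and did not pass in either fit. The summed linear level of 6 measured astrocyte markers out of 8 listed ran from 11670 to 13490 in control groups and from 13880 to 15770 in labelled mutant groups. All 6 were higher in labelled mutants, with a median log2 difference of 0.29, and Aqp4, Mlc1 and Ednrb passed with the block, as did the microglial marker Siglech (0.61). The summed level of 2 microglial markers out of 7 listed ran from 148.7 to 173.8 in controls and from 176.9 to 243.5 in labelled mutants, and the ranges of neuronal, interneuron, oligodendrocyte, endothelial and choroid plexus markers overlapped. Their part in the Celf2 difference was not tested. In bulk tissue fewer cells of a type and less RNA per cell cannot be told apart.

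Kainate within each genotype gave the following smallest p-values, none of which passed. In controls the helicase gene Ddx27, of ribosomal RNA processing, read 5.07, 4.71 and 4.84 with saline and 5.25, 5.44 and 5.64 with kainate, which do not overlap, with a log2 difference of 0.57 ± 0.13 (SE) and an adjusted p of 0.284 (0.0824 with the block, limma). In labelled mutants it read 5.21, 5.09 and 5.06 with saline and 5.15, 5.12 and 5.32 with kainate, where the treatments overlap. The difference between those responses was -0.49 (adjusted p 1, limma). Rbm33 differed with kainate in controls by 0.35 and Ddx59 by 0.26, Hnrnpu by -0.58 and Elavl2, a neuronal ELAV-like gene, by -0.41, at adjusted p from 0.398 to 0.424 (limma). In labelled mutants the smallest p-values belonged to Dhx36 (-0.34), which unwinds G-quadruplexes, Rbm12b2 (-0.53), Rbm28 (0.29), Dhx57 (0.16) and Ddx20 (-0.22), a helicase of the SMN complex, at adjusted p from 0.775 to 0.92 (limma). Of these, Rbm12b2 was below the level on every labelled mutant kainate array (3.71, 3.79 and 3.31). The kainate difference was above 0 for 8 of 8 Ddx members, 5 of 16 RBM members and 0 of 2 Sf3 members in controls, against 53.3% of all probe sets, and for 2 of 8, 4 of 16 and 0 of 2 in labelled mutants, against 41.7%. In the other families it was above 0 in controls for 2 of 4 Celf, 3 of 6 Dhx and 1 of 3 Elavl members. For Hnrnp, Prpf, Srsf and Snrp the counts were 2 of 4, 2 of 4, 2 of 2 and 0 of 1. In labelled mutants Celf, Dhx and Elavl had 1 of 4, 5 of 6 and 1 of 3. There Hnrnp, Prpf, Srsf and Snrp had 2 of 4, 1 of 4, 1 of 2 and 1 of 1. None of these differences passed, and the genes of a family share their arrays. The difference between the genotypes passed for none of the 8 Ddx members either, where the smallest p-values were those of Ddx59 (-0.37), Ddx27, Ddx21 (-0.26) and Ddx23 (-0.37), the U5-associated helicase.

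Averaged over genotypes, Rbm25 fell with kainate in the blocked fit alone. Rbm25 encodes an RNA-binding protein that guides splice-site choice. Its kainate minus saline differences in pairs of equal number were -0.19, -0.38 and 0.01 in controls and -0.44, -0.79 and -0.75 in labelled mutants. The mean log2 difference was -0.42 (1.34-fold lower), with a standard error of 0.58 and an adjusted p of 0.765 without the block, and of 0.10 and 0.0403 with it (limma). The call was kept in 3 of the 12 fits on 11 arrays, those without control kainate 1, labelled mutant saline 1 or labelled mutant kainate 1, and was lost in the other 9, with adjusted p from 0.0569 to 0.115. Non-overlap of all 6 kainate arrays with all 6 saline arrays was seen for 0 of 50 members and for 1.75% of all probe sets.

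By role, the smallest p-values for kainate averaged over genotypes belonged to the following members, none of which passed in either fit. Among core spliceosome genes these were Prpf18 (-0.73, adjusted p 0.0552 with the block), a factor of the second catalytic step, Sf3b1 (-0.34), the U2 branch-site factor, and the Sm gene Snrpf (0.00). Among regulators they were Srsf6 (0.15), Hnrnpu (-0.43), Celf5 (0.14), Elavl2 (-0.27) and Rbm33 (0.21), and among helicases Ddx27 (0.32, adjusted p 0.0579 with the block) and Dhx36 (-0.27), all by limma.

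The arrays numbered 1 differed from the others in 19 of the 50 members (38%), 13 higher and 6 lower, at an adjusted p under 0.05 (limma, group as a term). Over all probe sets 40.6% passed, 25.7% higher and 15% lower, so that the share among the members was near the background. The split by direction depends on scaling: 63.2% of all calls were higher as deposited, 51.4% after quantile normalization and 41.5% after centring each array on its median, and the members split 13 to 6, 10 to 9 and 9 to 11. The median of all probe sets moved from 0.05 to -0.01 and -0.07 between these scalings, so directions near 0 are relative to that shift. Between numbers 2 and 3 no member passed, nor any other probe set (0%, limma), and 2 members and 379 of all probe sets had an unadjusted p under 0.05. The differences of all 50 members between number 1 and the other arrays are plotted in order.

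**Figure D2:**
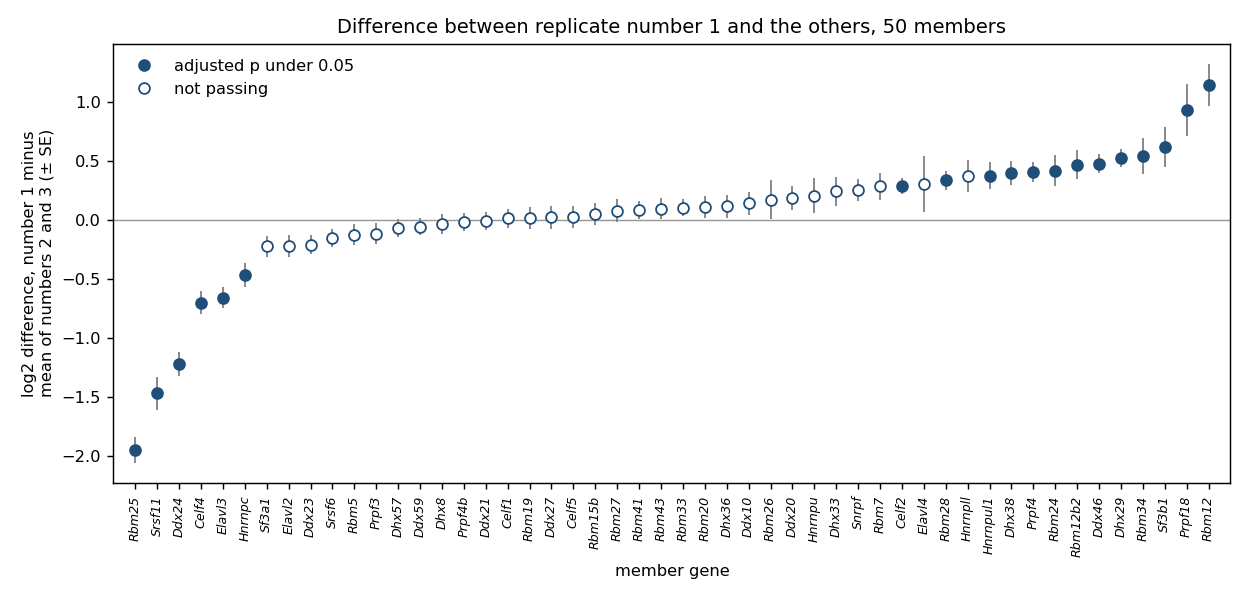
Log2 difference between arrays numbered 1 and the mean of those numbered 2 and 3 for each of the 50 members, ordered by size, with bars for the standard error of the limma fit and filled points for an adjusted p under 0.05. The 19 filled points run from Rbm25 at -1.95 to Rbm12 at 1.14, with 13 above 0.

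Values that did not overlap between number 1 and the other 8 arrays were seen for 10 of 50 members (20%, against 19.4% of all probe sets), all of which passed, 5 lower and 5 higher. Rbm25 showed the widest gap. It read 6.27, 6.09, 6.14 and 5.70 on the number 1 arrays of control saline, control kainate, labelled mutant saline and labelled mutant kainate, and from 7.48 to 8.47 with a median of 8.12 on the other 8. The log2 difference was -1.95 ± 0.11 (SE), or 3.86-fold lower, with an adjusted p of 1.043e-06 (limma).

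Srsf11, an SR protein gene, read 6.75, 6.78, 6.88 and 5.96 in the same order of groups on number 1, and 7.84 to 8.35 with a median of 8.06 on the others, a difference of -1.47 ± 0.14 (2.78-fold lower, adjusted p 2.387e-05, limma). Its second probe set gave -0.64 and passed too. Ddx24, a nucleolar helicase gene, read 7.55, 7.48, 7.61 and 6.96 on number 1 and 8.23 to 8.80 with a median of 8.67 on the others (-1.22 ± 0.10, 2.33-fold lower). For both genes the labelled mutant kainate array was the lowest of the 4.

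The neuronal RNA-binding genes Celf4 and Elavl3 were lower as well. Celf4 read 9.54, 9.49, 9.75 and 9.29 on number 1 and 9.88 to 10.46 with a median of 10.18 on the others (-0.70 ± 0.10). Its other probe set went the opposite way, at 0.86 with an adjusted p of 2.574e-05 (limma), so the 2 probe sets of this gene disagree. Elavl3 read 8.06, 8.21, 7.85 and 8.08 against 8.50 to 8.87 with a median of 8.71 (-0.66 ± 0.09), and its second probe set gave -1.19.

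The 5 members that were higher on number 1 without overlap were Rbm12, Dhx29, Ddx46, Prpf4 and Rbm28. Rbm12, an RNA-binding gene, read 6.02, 6.27, 6.19 and 6.31 on number 1 and 4.55 to 6.00 with a median of 4.96 on the others (1.14 ± 0.18, 2.2-fold higher, adjusted p 0.000679, limma). Within control saline its difference was 0.35, since control saline 2 read 6.00. Dhx29, a helicase of translation initiation, read 7.12 to 7.52 on number 1 and 6.62 to 6.96 on the others (0.52 ± 0.07), and Ddx46, which acts with U2 at the branch site, 7.43 to 7.99 and 7.01 to 7.34 (0.47 ± 0.08). Prpf4, of the U4/U6 particle, differed by 0.40 and Rbm28 by 0.33, the latter not passing after median centring (0.21, adjusted p 0.0568, limma). The other 9 passing members had overlapping values, among them Hnrnpc (-0.47), which binds uridine tracts, and Prpf18 (0.93), Sf3b1 (0.61), Dhx38 (0.39) and Celf2 (0.29).

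**Figure D3:**
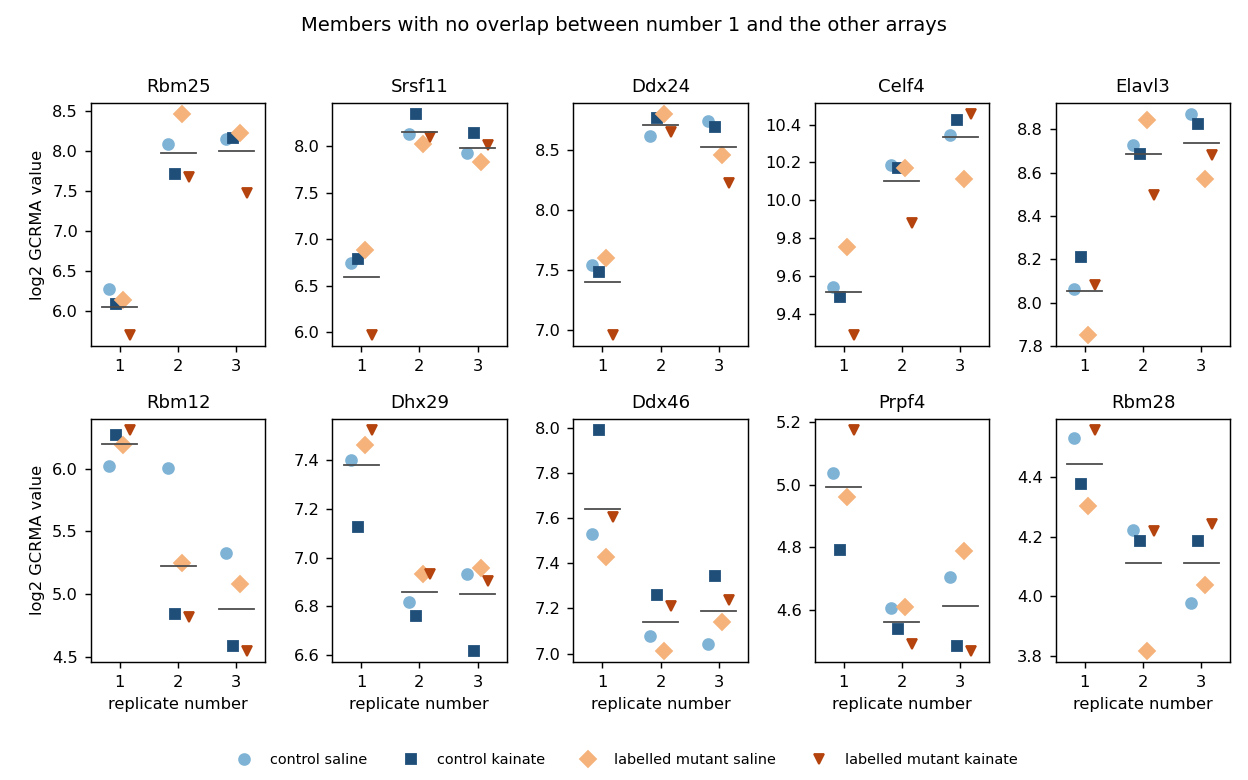
Log2 GCRMA values of the 10 members whose values did not overlap between replicate number 1 and the other arrays, by replicate number, with 1 point per group and a line for the mean of the 4 arrays. The top row lies lower on number 1 (Rbm25 5.70 to 6.27 against 7.48 to 8.47) and the bottom row higher (Rbm12 6.02 to 6.31 against 4.55 to 6.00).

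Several other genes with more than 1 probe set past the level disagreed on number 1. Rbm5, an RNA-binding regulator of apoptosis genes, gave -0.13, 0.05 and 1.55 in 3 probe sets, of which only the last passed. The 3 probe sets of Dhx8, the helicase that releases spliced RNA, ran from -0.04 to 0.90, and those of Rbm34 were 0.54 and -0.24. In all, 14 members had several probe sets past the level, and Celf4, Rbm34, Rbm5, Ddx10 and Dhx8 differed in sign between probe sets.

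Some control probe sets for RNA quality also separated number 1, in opposite directions, and others did not. The actin 3′ minus middle difference was higher on number 1, at 1.63 to 1.95 against 1.36 to 1.53 on the other arrays. The Gapdh 3′ minus 5′ difference was lower, at -0.42 to -0.36 against -0.33 to -0.03. The actin 3′ minus 5′ difference overlapped, as did the Gapdh 3′ minus middle difference (-0.03 to 0.11 against -0.02 to 0.15). The median of the tested probe sets was 5.93 to 5.97 on number 1 and 5.76 to 5.90 elsewhere. Of 4 measured neuronal markers out of 8 listed, Nefl was higher by 0.35 and Rbfox3 lower (-0.80), and of 6 astrocyte markers Ednrb was higher by 0.25. Of 2 measured microglial markers out of 7 listed Siglech was lower (-0.56). The part of these in the number 1 differences was not tested.

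Genes of the same pathways outside the 10 families differed on number 1 in both directions too, where 40.6% of all probe sets passed. None of the lists below had a larger share than that. Of 18 measured splicing regulators, out of 25 on the array, 3 were higher, Tial1 (0.72), Msi1 (0.65) and Rbfox2 (0.51), and 3 lower, the speckle scaffold gene Srrm2 (-2.24), the neuronal splicing regulator Rbfox3 (-0.80) and Mbnl2 (-0.17). Of 20 measured core spliceosome genes, 2 were higher, Crnkl1 (0.72) and Scaf11 (0.58), and 4 lower, Snw1 (-2.19), the U1-associated Luc7l3 (-1.70), Lsm11 (-0.88) and Cdc5l (-0.76). Of 3 measured SR protein kinase and phosphatase genes Ppp1r8 was higher (0.42), and of 4 measured genes of the exon junction complex and nonsense-mediated decay Smg6 was higher (0.29).

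With number 1 set aside, the kainate comparison over the 8 arrays of numbers 2 and 3 gave 14 of 50 members past an adjusted p of 0.05 (28%), 3 higher and 11 lower, against 22.3% of all probe sets, 8.76% higher (555) and 13.5% lower (857, limma). With the block 13 of 50 passed against 24.9% of all, and Celf5 was the member lost (adjusted p 0.0496 without and 0.0513 with the block, limma). Values of the 4 kainate and 4 saline arrays did not overlap for 12 members (24%), against 23.5% of all probe sets. Both shares were near the background. Within genotypes 7 of 50 members passed in controls (14% against 10.1% of all) and 1 of 50 in labelled mutants (2% against 9.41%). The difference between those responses passed for 0 members and 0% of all probe sets (limma), and 4 members (8%) had an unadjusted p under 0.05, against 4.78% of all. For genotype averaged over treatments 1 member passed (2% against 0.726%).

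The core spliceosome genes Prpf18 and Sf3b1 fell. Prpf18 read 6.66 and 6.18 in controls with saline, 5.74 and 4.66 with kainate, 6.55 and 6.22 in labelled mutants with saline, and 5.48 and 5.18 with kainate, for numbers 2 and 3. All 4 kainate arrays lay below all 4 saline arrays, and the fall was 2.2-fold (log2 -1.14 ± 0.22, SE, adjusted p 0.00668, limma). On number 1 its values were 6.81 and 6.74 in controls and 6.65 and 6.87 in labelled mutants, with saline and kainate. Sf3b1 read 5.93 and 5.56, then 4.93 and 4.96, in controls and 5.56 and 5.61, then 5.39 and 4.87, in labelled mutants (-0.63 ± 0.14, 1.55-fold lower, adjusted p 0.0107, limma). On number 1 it read 6.07 and 6.07 in controls and 5.63 and 6.08 in labelled mutants.

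Among neuronal regulators Elavl4, which stabilises transcripts with AU-rich elements, read 7.29 and 6.82 in controls with saline, 6.09 and 5.69 with kainate, 6.84 and 6.15 in labelled mutants with saline, and 6.05 and 5.54 with kainate. The groups did not overlap, and the fall was 1.91-fold (-0.94 ± 0.19, adjusted p 0.00827, limma). Its number 1 arrays read 6.63 and 6.44 in controls and 6.22 and 7.16 in labelled mutants. Elavl2 fell by 0.27 on the log2 scale, while its second probe set gave -0.09 and did not pass (adjusted p 0.527, limma). Hnrnpu fell by 0.50 and Rbm24 by 0.43. Hnrnpul1 rose by 0.50 and, in the fit without the block alone, Celf5 by 0.26.

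Of 16 RBM members 5 passed, all lower, where 22.3% of all probe sets passed, and 7 of the 16 had a difference above 0. Rbm12 read 6.00 and 5.33 in controls with saline, 4.84 and 4.59 with kainate, 5.25 and 5.08 in labelled mutants with saline, and 4.82 and 4.55 with kainate, with no overlap (-0.71 ± 0.16, 1.64-fold lower, adjusted p 0.0107, limma). Rbm26 fell by 0.53, Rbm25 by 0.48 and Rbm34 by 0.34. The second Rbm34 probe set gave 0.11 and did not pass (adjusted p 0.53, limma). Among the helicases Dhx36 fell by 0.40, with a second probe set that fell by 0.56, and Ddx27 rose by 0.45, while its second probe set gave 0.32 and did not pass (adjusted p 0.0565, limma).

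**Figure D4:**
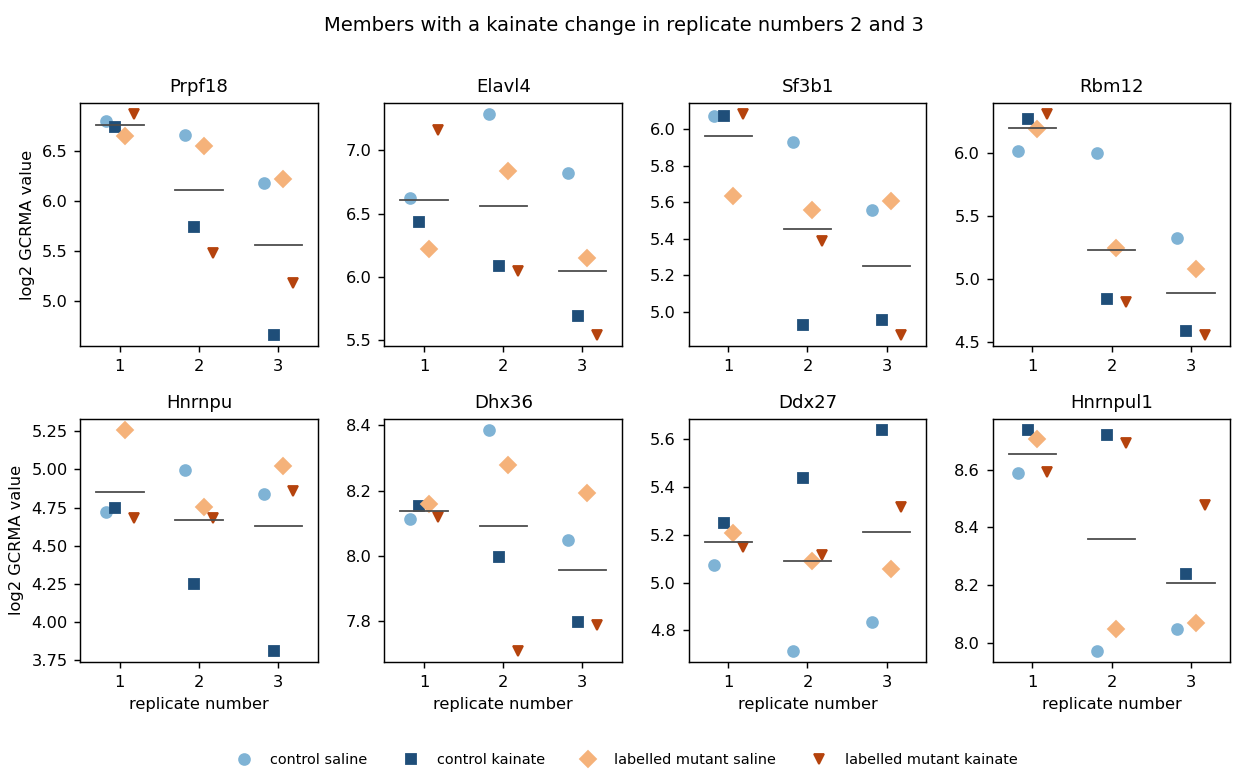
Log2 GCRMA values of 8 members that passed for kainate over replicate numbers 2 and 3, by replicate number and group, with a line for the mean of the 4 arrays of a number. Within numbers 2 and 3 the kainate arrays of Prpf18 lie at 4.66 to 5.74 and the saline arrays at 6.18 to 6.66, and on number 1 all 4 arrays lie between 6.65 and 6.87.

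These calls rest on few arrays. Leaving out 1 of the 8 leaves 1 array in its group. Each such fit also called fewer probe sets over all than the fit of all 8, the fewest without control saline 2. Without control saline 2 the members that passed numbered 3, Prpf18, Rbm12 and Ddx27, and without any other single array 7 to 11. Prpf18 and Rbm12 passed in all 8 such fits. Elavl4, Sf3b1 and Hnrnpul1 passed in 7, not without control saline 2, and Ddx27 in 7, not without labelled mutant kainate 3. The other 8 passed in 0 to 4 of the 8 fits. After quantile normalization or median centring 12 members passed, all among the 14, and Elavl2 and Rbm34 did not. Of all 6334 probe sets 1470 and 1622 passed under these scalings, against 1412 as deposited.

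Probe sets of a gene also disagreed on kainate. The second Celf2 probe set fell by 0.71 in numbers 2 and 3, while the member probe set gave -0.04. For Celf4 the probe sets gave 0.03 and -0.59, and for Srsf11 0.17 and -0.53, where the lower value passed in each gene. Averaged over all numbers, Celf4, Celf2, Srsf11, Rbm15b and Rbm34 had the widest ranges between probe sets, from 0.19 to 0.42.

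Whether the kainate change differed between number 1 and the others was tested directly. In 4 of the 50 members (8%) it did, against 6.71% of all probe sets, and in all 4, Elavl4, Prpf18, Rbm12 and Sf3b1, the change was more negative on numbers 2 and 3. Kainate differences on number 1 averaged 0.38 for Elavl4, 0.08 for Prpf18, 0.18 for Rbm12 and 0.23 for Sf3b1. Each average covers 1 control and 1 labelled mutant pair. In that order the pairs read -0.19 and 0.94 for Elavl4 and -0.06 and 0.22 for Prpf18. For Rbm12 they read 0.25 and 0.12, and for Sf3b1 0.00 and 0.45.

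**Figure D5:**
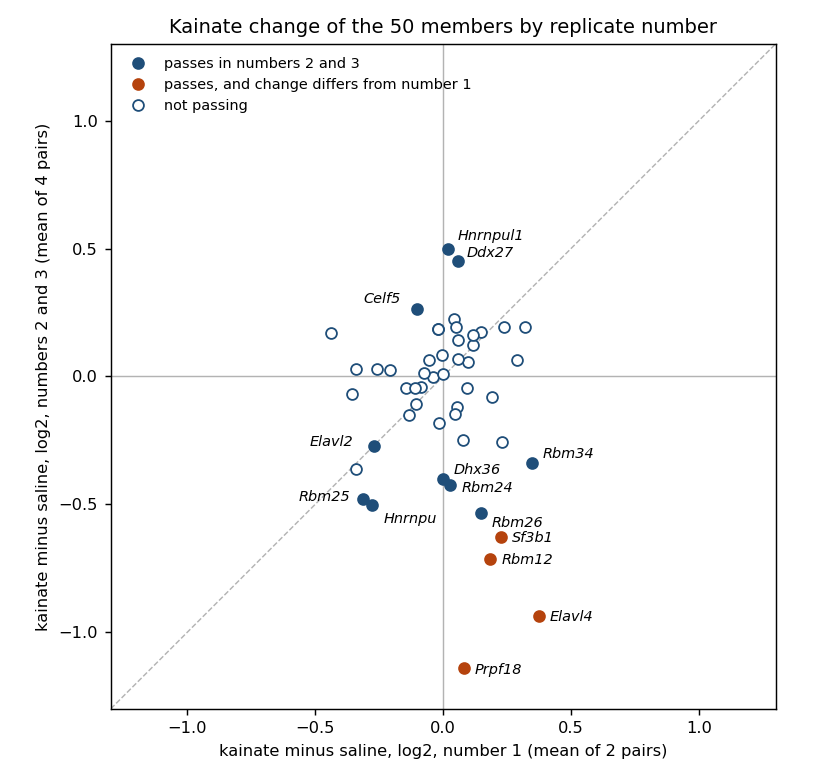
Kainate minus saline log2 difference of the 50 members on replicate number 1 (horizontal, mean of 2 pairs) and on numbers 2 and 3 (vertical, mean of 4 pairs), with equality as a dashed line. Filled points passed in numbers 2 and 3, and Elavl4, Prpf18, Rbm12 and Sf3b1, in orange, lie at -0.94, -1.14, -0.71 and -0.63 on the vertical axis and between 0.08 and 0.38 on the horizontal axis.

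Pathway genes outside the families gave the following in numbers 2 and 3, where 22.3% of all probe sets passed. Of the 18 splicing regulators Rbfox2 rose (0.57) and 4 fell, the RNA-binding gene Qk (-1.34), Tial1 (-0.90), Tra2a (-0.81) and Syncrip (-0.75). Of the 20 core spliceosome genes Snw1 (0.86) and Gemin7 (0.57) rose, and Crnkl1 (-0.60) and Luc7l3 (-0.44) fell. Of 4 genes of the exon junction complex and nonsense-mediated decay, Smg1 fell (-0.60). Over all 12 arrays with the block, Luc7l3 (-0.37) and Smg1 (-0.51) were the passing genes of these lists for kainate, and without it none was. Of all probe sets 7.63% passed with the block and 0.41% without it. Markers moved with kainate in numbers 2 and 3 as well: the interneuron markers Gad2 (-1.51) and Cnr1 (-0.45), the 2 measured of 7 listed, both fell, as did Slc1a3 (-1.26) and Mlc1 (-0.24) among 6 astrocyte markers and Nefl (-0.31) among 4 neuronal markers. Their part in the members' changes was not tested.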

How the data were processed

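The deposited values were log2 signals per probe set of the MG-U74B array. The submitters' processing notes name R 2.4.1 and GCRMA, a method that removes background estimated from probe sequences and then combines a set's probes into 1 value. Settings and annotation release: not given in the sources used here. GCRMA folds are on the log2 scale, probe sets are not compared in level with each other, and with 12 arrays precision is limited.

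Of 12477 entries, 66 Affymetrix controls were left out. Probe sets over 4 on at least 3 of 12 arrays were tested (6334), and genes were named where the platform annotation gave 1 symbol. limma 3.58.1 (R 4.3.3; lmFit, eBayes with an intensity trend) estimated 1 mean for each group from the 12 arrays, with Benjamini-Hochberg adjustment over all probe sets and a threshold of 0.05. Replicate numbers were compared with group as a term. The test for a kainate change that differs on number 1, the blocked fit of numbers 2 and 3, and the number 1 comparison on saline arrays alone were chosen after seeing the data. The kainate comparison over numbers 2 and 3 alone, without the block, was not among the 7 planned comparisons of groups either. The fits were tested on simulated data whose noise held no effect of the replicate number. That test does not show how the fits without the block behave on these arrays.

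Whether the numbers pair the arrays was judged from the deviations from group means. All 18 pairs of equal number correlated over 0.1 (r from 0.361 to 0.881 over all probe sets). Arrays numbered 2 and 3 correlated with each other over 0.1 as well (0.309 to 0.583). This measure therefore cannot show pairing beyond number 1 standing apart. The members and gene lists were chosen with earlier results of these data known. Named genes were all members past the threshold with or without the block and otherwise the 5 smallest p-values per comparison, the 8 highest and 8 lowest per number comparison that passed without overlap, the smallest p per family, the 5 genes whose probe sets differed most, and up to 5 passing pathway genes. Pathway genes beyond 5, members passing in numbers 2 and 3, and markers were named after their values were seen.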

Additional observations from a re-analysis of the deposited data

Results flagged for a closer look

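The kainate change of 4 members differed between replicate number 1 and the others in the direct test (limma, 12 arrays, Benjamini-Hochberg over all 6334 probe sets). The kainate change on numbers 2 and 3 minus that on number 1 was -1.31 ± 0.23 (SE) for Elavl4 (adjusted p 0.0098), -1.22 ± 0.22 for Prpf18 (adjusted p 0.0104), -0.85 ± 0.21 for Sf3b1 (adjusted p 0.0309) and -0.90 ± 0.23 for Rbm12 (adjusted p 0.0398). The differences on numbers 2 and 3 were negative in 4 of 4 pairs for each of these genes. With 1 of the 12 arrays left out, Prpf18 passed in 10 fits (not without labelled mutant saline 1 or labelled mutant kainate 1), Elavl4 in 9 (not without control saline 1, labelled mutant saline 1 or labelled mutant kainate 1), and Rbm12 and Sf3b1 in 3 each. Number 1 holds 1 array per group, so each of its kainate differences is a single pair.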

How the results depend on the processing

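In the comparisons of groups 0 members passed, and this held with any 1 array left out (0 to 0). The replicate block gave 1 member for kainate averaged over genotypes and 1 for genotype averaged over treatments, and changed no other call in these comparisons. In numbers 2 and 3 alone it ended the Celf5 call for kainate (adjusted p 0.0513, limma). For genotype, 1 member also passed with median centring, with the block and quantile normalization, and in numbers 2 and 3 alone. Numbers 2 and 3 alone gave 14 members for kainate averaged over genotypes (13 with the block), 7 in controls and 1 in labelled mutants, where 22.3% (24.9%), 10.1% and 9.41% of all probe sets passed and the difference between genotypes passed for none. The number 1 comparison gave 15 (without control kainate 1) to 20 members with 1 array left out and 12 on saline arrays alone. On all 12 arrays it gave 19 members (38%), against 40.6% of all probe sets. The shares of all probe sets in the reduced fits are not given here. With 1 array left out, numbers 2 and 3 differed in 0 to 0 members. The difference in kainate change gave 0 (without labelled mutant kainate 1) to 5 members (without control kainate 3). Of all 6334 probe sets 58 and 467 passed in those fits, against 425 on all 12 arrays. Where any probe set of a gene counted, 7 members passed. Snrpf, near 0 for kainate averaged, turned sign in numbers 2 and 3 alone (-0.0436 with and without the block) and in 6 of the 12 fits without 1 array, which ranged from -0.0647 to 0.0828; the cause was not tested. Of the single-gene results under alternatives, 955 kept direction and side of the threshold, 22 came to pass, 3 no longer passed, 12 moved by more than the spread and 8 turned sign. In the comparisons of groups 0 members passed to begin with, so keeping that side there is no evidence of a stable result. Within 1 group no count could be made for replicate numbers. The number of arrays limits what small differences can pass.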
